A study of Mus musculus with 6 samples.

Results

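DNA replication and G1/S genes carry a cell out of G1 and copy its genome. 35 of them were looked up by symbol among the 24062 genes counted in mouse marrow cultures, and all 35 were found. All 35 also passed the filter on low counts, so no gene of the list is missing from the results.

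The study asked how the stiffness under the cells bears on gene expression in dendritic cell cultures. It compared 3 libraries of cultures on a 50 kPa surface (high tension) with 3 libraries of cultures on a 2 kPa surface (low tension). Marrow from the long bones of the hind leg of C57BL/6J mice was grown in both groups with GM-CSF at 20 ng/ml, renewed on days 3, 6 and 10. No allele, transgene or sort of cells is named for either group, so each library is read here as a mixture of cell types. The labels do not say whether libraries of a group came from separate animals or wells. The p-values therefore measure only the spread between these libraries, which may be technical.

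Libraries held 33.8 M to 36.1 M counts at 50 kPa and 35.9 M to 36.3 M counts at 2 kPa. The values of the 35 genes rested on 116 to 7483 counts, with the fewest in Gins1. Levels are given in CPM, the read count of a gene relative to the size of its library, after TMM scaling, which corrects for differences in RNA composition. The dendritic cell label was checked against 10 marker genes. Cd74 and H2-Aa, which serve antigen presentation by MHC class II, were its most abundant markers. Cd74 averaged 8998 ± 1766 CPM at 50 kPa and 4611 ± 1492 CPM at 2 kPa (SD, n = 3 each). H2-Aa averaged 4625 ± 1230 CPM at 50 kPa and 1922 ± 774 CPM at 2 kPa (SD, n = 3 each). Of the 10 markers 6 had positive log2 fold changes and 4 negative ones (Flt3 -1.39, Ccr7 -1.22, Batf3 -0.46 and Zbtb46 -0.36), none called by edgeR. High tension replicates 1 and 2 were much more alike than any other pair of libraries, with a chi-square per degree of freedom of 6.71. Further pairs from 1 group gave 126 to 233, and pairs across the groups ran from 122 to 418. Replicate 1 at 2 kPa was closer to replicates 1, 2 and 3 at 50 kPa (126, 136 and 122) than to replicates 2 and 3 of its own surface (156 and 213). By this measure the libraries did not divide cleanly by stiffness. The counts of high tension replicates 1 and 2 differed by more than sampling noise, so both were kept. Results with their counts summed into 1 sample are given where the 35 genes are first compared.

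Replication is prepared in G1, when CDC6 and CDT1 load the ring-shaped MCM2 to MCM7 helicase onto origins. At the start of S phase CDC45 and the GINS complex join the ring and turn it into an active helicase, and polymerases, the PCNA clamp and its loader then follow the fork. Many of these genes are switched on together by E2F transcription factors once cyclin E and its kinase have helped to inactivate the retinoblastoma protein. In GM-CSF cultures of mouse marrow, progenitors divide for some days before most of their progeny stop dividing as dendritic cells, macrophages and granulocytes.

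The promoters of these genes were read for letters that E2F factors are known to bind. RefSeq sequences on GRCm38.p6, running from 250 bases before to 50 bases after the start of a gene, were at hand for 30 of the 35 genes. Mcm4, Gins1, Gins2, Pole and Ccne2 had none. The spellings TTTCCCGC, TTTCGCGC, TTTGGCGC and TTTGCCGC were searched on both strands, and matches on opposite strands can overlap. At least 1 spelling stood in the promoters of 12 of the 30 genes (40%), against 704 of all 27025 genes in the table (2.61%). The 12 genes were Cdc6, Cdt1, Mcm3, Mcm5, Mcm6, Mcm7, Pola1, Pold1, Rfc3, Lig1, Uhrf1 and E2f2. The CCAAT box, spelled CCAAT on either strand, stood in 19 of the 30 genes (63.3%) and in 41.1% of all genes. The spelling TTTGAA, the core of the CHR element of mitotic genes, stood in 5 of the 30 genes (16.7%) and in 20.2% of all genes. A match is a run of letters and does not show that a factor binds there.

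4 promoters are printed 5′ to 3′ on the strand of the gene, with E2F spellings in capitals. They are those of the 4 genes that hold a spelling and whose groups did not overlap, with lower levels at 50 kPa. In Mcm5 the matches began 153 and 149 bases before the RefSeq start, on opposite strands, and overlapped. In Mcm6 they began 110, 106 and 47 bases before it, and the pair farthest from the start overlapped. In Rfc3 they began 10 bases before the start and at the start itself, on opposite strands. In Uhrf1 the match began 185 bases before the start of 1 of its 2 listed promoters. The window listed for E2f1 held no spelling, but it lies inside the longer span that GENCODE gives the gene, so the letters before the outer start were not read.
Mcm5 (chr8:75109259-75109558, plus strand): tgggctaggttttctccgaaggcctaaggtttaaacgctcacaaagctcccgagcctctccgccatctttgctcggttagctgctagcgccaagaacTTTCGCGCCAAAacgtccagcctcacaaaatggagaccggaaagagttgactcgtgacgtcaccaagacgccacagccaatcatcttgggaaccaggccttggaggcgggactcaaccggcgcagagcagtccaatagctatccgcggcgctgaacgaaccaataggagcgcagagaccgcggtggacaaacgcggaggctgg
Mcm6 (chr1:128359656-128359955, minus strand): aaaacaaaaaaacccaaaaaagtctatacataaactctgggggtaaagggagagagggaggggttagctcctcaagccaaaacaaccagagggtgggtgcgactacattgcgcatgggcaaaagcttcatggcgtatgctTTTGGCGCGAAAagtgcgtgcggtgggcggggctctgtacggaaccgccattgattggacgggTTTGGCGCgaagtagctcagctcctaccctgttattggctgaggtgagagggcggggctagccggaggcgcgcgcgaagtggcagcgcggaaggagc
Rfc3 (chr5:151651159-151651458, minus strand): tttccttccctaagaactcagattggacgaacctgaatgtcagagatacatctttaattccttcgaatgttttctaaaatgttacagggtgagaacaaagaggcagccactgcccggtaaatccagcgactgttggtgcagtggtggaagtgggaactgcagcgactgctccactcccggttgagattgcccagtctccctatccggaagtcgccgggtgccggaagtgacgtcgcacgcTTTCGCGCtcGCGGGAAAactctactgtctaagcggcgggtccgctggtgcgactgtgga
Uhrf1 (chr17:56304063-56304362, plus strand): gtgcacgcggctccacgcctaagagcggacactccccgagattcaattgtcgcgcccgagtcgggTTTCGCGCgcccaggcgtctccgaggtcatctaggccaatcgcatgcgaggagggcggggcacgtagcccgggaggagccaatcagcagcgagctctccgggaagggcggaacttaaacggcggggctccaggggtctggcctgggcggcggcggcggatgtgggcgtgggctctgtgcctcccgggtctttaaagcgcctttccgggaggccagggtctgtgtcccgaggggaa

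Across the 35 genes, 33 had a negative log2 fold change, 50 kPa over 2 kPa, against 53.2% of all 13155 genes tested. E2f1 and Chaf1b were the exceptions. In these mixed cultures fewer dividing cells and less of an RNA per cell cannot be told apart. The median log2 fold change was -0.39 over the 35 genes and -0.03 over all genes, and the values ran from -0.94 for Mcm10 to 0.37 for E2f1. None of the 35 genes passed an adjusted p of 0.05 in edgeR's quasi-likelihood test, whereas 3.45% of all genes tested did, 1.98% lower and 1.47% higher at 50 kPa. At an unadjusted p under 0.05, 8 of the 35 genes were lower (14.8% of all genes) and 1 was higher (13.0% of all genes). limma-voom called none of them, where it called 1.79% of all genes lower and 1.47% higher. DESeq2 called Mcm5, Mcm10, Gins1 and Uhrf1 lower and E2f1 higher, that is 4 and 1 of 35, where it called 9.51% of all genes lower and 8.52% higher. With high tension replicates 1 and 2 summed, 33 log2 fold changes were again negative, the median was -0.40 and edgeR called none of them, but it called none (0%) of all 13429 genes tested in that fit either.

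**Figure D1:**
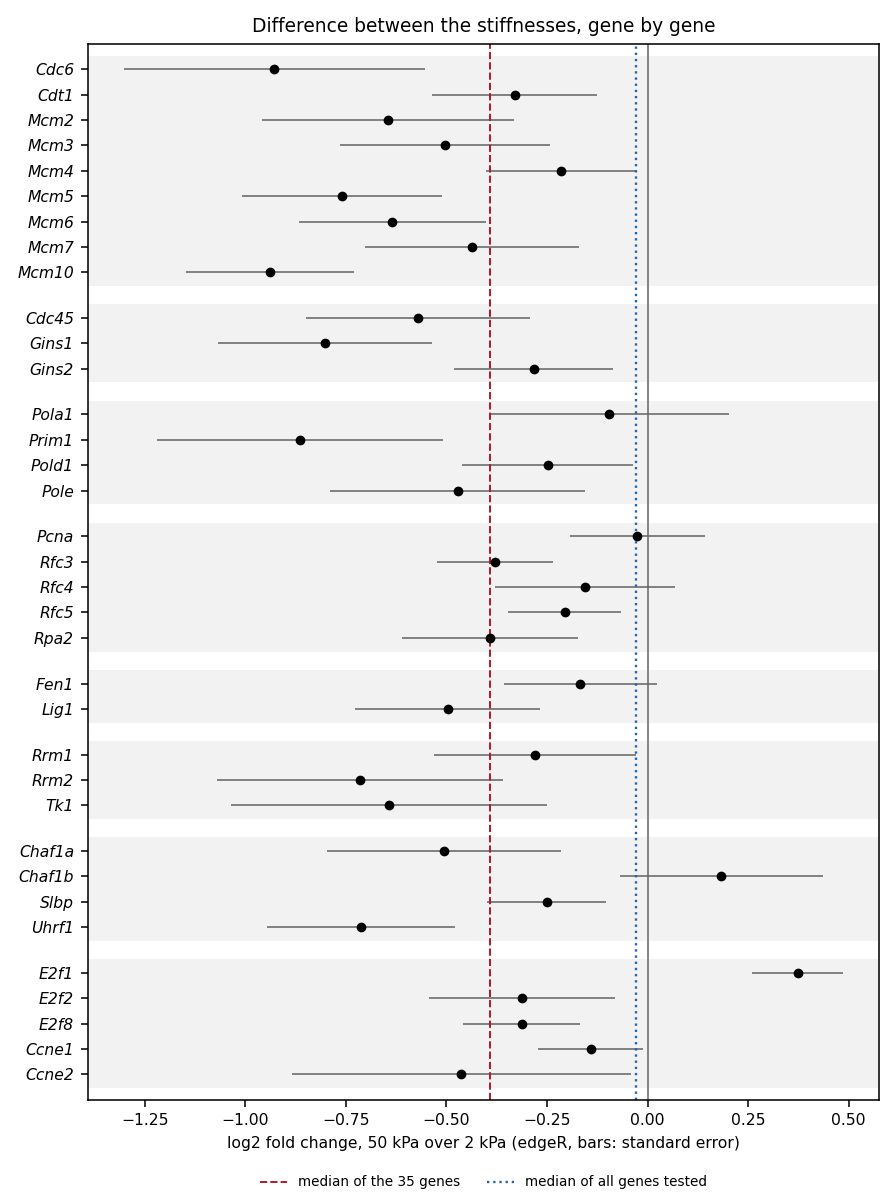
Log2 fold change of each of the 35 genes, 50 kPa over 2 kPa, from edgeR, with its standard error (bars; n = 3 libraries per group), arranged by role. All points except E2f1 and Chaf1b lie below 0, and the median of the 35 genes (dashed) is -0.39, against -0.03 for all genes tested (dotted).

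The groups did not overlap in 7 genes whose levels were lower at 50 kPa (Mcm5, Mcm6, Mcm10, Gins1, Rfc3, Uhrf1 and E2f8), where 16.9% of all genes showed that pattern. E2f1 was the only 1 of the 35 with the opposite pattern, shown by 17.2% of all genes. Low tension replicate 3 stood at or below the highest high tension library in 28 of the 35 genes, against 61.7% of all genes tested.

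The 9 genes listed under origin licensing and helicase loading included the smallest adjusted p. All 9 had negative log2 fold changes, with a median of -0.63. Mcm10 was listed with them, although it acts once the helicase is loaded and links it to polymerase alpha. Mcm10 lies on chromosome 2 from 4989714 to 5012791 (GRCm38, minus strand) and had the smallest adjusted p of the 35 genes. It reached 6.97, 8.12 and 6.54 CPM at 50 kPa, against 12.7, 17.8 and 10.99 CPM at 2 kPa. Every 2 kPa library lay above every 50 kPa library. Its log2 fold change was -0.94 ± 0.21 (SE), with an edgeR adjusted p of 0.0632.

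The 6 subunits of the MCM2 to MCM7 ring had log2 fold changes of -0.76 to -0.21 and edgeR adjusted p values of 0.120 to 0.478. Mcm5 lies on chromosome 8 from 75109569 to 75128439 on the plus strand. It had 22.6, 22.5 and 18.8 CPM at 50 kPa, against 34.5, 49.0 and 24.8 CPM at 2 kPa. Its groups did not overlap, but low tension replicate 3 stood close to the high tension libraries and low tension replicate 2 well above the rest. The log2 fold change was -0.76 ± 0.25 (SE; edgeR adjusted p = 0.120). Mcm6 had the same order, with 41.4, 41.6 and 36.1 CPM at 50 kPa and 60.9, 81.5 and 42.4 CPM at 2 kPa (log2 fold change -0.63 ± 0.23 SE, edgeR adjusted p = 0.146). Mcm2, Mcm3, Mcm4 and Mcm7 overlapped between groups. Mcm4, a subunit of the catalytic core, had the smallest difference of the ring, at 48.6, 46.8 and 43.1 CPM at 50 kPa and 58.1, 63.5 and 38.9 CPM at 2 kPa. Mcm2 had 20.8, 18.8 and 17.997 CPM at 50 kPa, against 29.0, 43.5 and 17.5 CPM at 2 kPa, so its lowest and highest values both came from 2 kPa.

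The loading factors differed from each other in size. Cdc6, the ATPase that brings the ring to the origin, averaged 4.55 ± 0.82 CPM at 50 kPa and 8.66 ± 4.12 CPM at 2 kPa (SD, n = 3 each). Its log2 fold change of -0.93 ± 0.37 (SE) was nearly as large as that of Mcm10, but the 2 kPa libraries ran from 4.63 to 12.9 CPM and the edgeR adjusted p was 0.173. Cdt1, its partner in loading, had a log2 fold change of -0.33 ± 0.20 (SE; edgeR adjusted p = 0.326).

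Helicase activation was covered by Cdc45, Gins1 and Gins2, with a median log2 fold change of -0.57. Gins1, a GINS subunit on chromosome 2 from 150905400 to 150931280 (plus strand), had 4.08, 3.46 and 3.65 CPM at 50 kPa, against 7.40, 7.92 and 4.18 CPM at 2 kPa. Its groups did not overlap, but low tension replicate 3 stood barely above high tension replicate 1. The log2 fold change was -0.80 ± 0.27 (SE; edgeR adjusted p = 0.122). Cdc45 had -0.57 ± 0.28 and Gins2 -0.28 ± 0.20 (log2 fold change ± SE), and both overlapped between groups.

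Among the polymerases and primase, Prim1 had the largest difference. It encodes the catalytic subunit of primase, which starts each new strand with a short RNA, and lies on chromosome 10 from 128015168 to 128030037 (plus strand). Prim1 had 6.10, 5.43 and 4.60 CPM at 50 kPa, against 9.91, 14.2 and 5.26 CPM at 2 kPa (log2 fold change -0.86 ± 0.36 SE, edgeR adjusted p = 0.178). Low tension replicate 3 lay within the 50 kPa values. Pola1, the catalytic subunit of the polymerase that works with primase, had a log2 fold change of -0.10 ± 0.30 (SE), and its sign turned positive without high tension replicate 3 (0.08) or low tension replicate 2 (0.17). Pold1 and Pole, the catalytic subunits of the main replicative polymerases of the lagging and the leading strand, had -0.25 ± 0.21 and -0.47 ± 0.32. The intervals of Prim1 and Pole overlap, and differences between genes were not tested.

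Pcna, the sliding clamp that tethers polymerases to DNA, was the most abundant of the 35 genes and made up 12.05% to 18.4% of their summed CPM in a library. It lies on chromosome 2 from 132249162 to 132253314 (minus strand). Pcna had 171, 171 and 140 CPM at 50 kPa, against 194, 165 and 132 CPM at 2 kPa. The groups overlapped throughout, and the log2 fold change was -0.03 ± 0.17 (SE; edgeR adjusted p = 0.933). Its sign turned without high tension replicate 3 (0.07) or low tension replicate 1 (0.12). The annotation lists processed pseudogenes of Pcna, and the sources used here do not give how reads shared with them were counted.

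The clamp loader genes had differences of -0.38 to -0.16 on the log2 scale. Rfc3, a loader subunit on chromosome 5 from 151642756 to 151651242 (minus strand), broke the order that most of the 35 genes shared at 2 kPa. It had 9.18, 7.49 and 8.59 CPM at 50 kPa, against 11.3, 9.62 and 12.01 CPM at 2 kPa, with its highest value in low tension replicate 3. The groups did not overlap, and the log2 fold change was -0.38 ± 0.14 (SE; edgeR adjusted p = 0.155). Rfc4 and Rfc5 had -0.16 ± 0.22 and -0.21 ± 0.14, and Rfc4 turned to 0.03 without low tension replicate 2. Rpa2, a subunit of the complex that coats single-stranded DNA, had -0.39 ± 0.22 (log2 fold change ± SE).

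Okazaki fragments are trimmed by the flap nuclease FEN1 and sealed by DNA ligase 1. Lig1, on chromosome 7 from 13277283 to 13311433 (plus strand), had 17.5, 18.5 and 18.3 CPM at 50 kPa, against 26.3, 33.1 and 17.2 CPM at 2 kPa. The 50 kPa libraries were nearly equal, while the 2 kPa libraries spanned them (log2 fold change -0.50 ± 0.23 SE, edgeR adjusted p = 0.217). Fen1 had a log2 fold change of -0.17 ± 0.19 (SE).

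Deoxynucleotide supply was represented by ribonucleotide reductase and thymidine kinase. Rrm2 encodes the small subunit of the reductase, whose level is known to limit it in S phase, and lies on chromosome 12 from 24708241 to 24714146 (plus strand). Rrm2 had 30.2, 35.4 and 23.6 CPM at 50 kPa, against 48.0, 71.7 and 26.7 CPM at 2 kPa. Low tension replicate 3 lay below 2 of the 3 high tension libraries, and the log2 fold change was -0.72 ± 0.36 (SE; edgeR adjusted p = 0.242). Rrm1, the large subunit, had -0.28 ± 0.25, so the difference of the small subunit was the larger of the pair, although their intervals overlap. Tk1, which salvages thymidine, had 7.78, 8.81 and 5.96 CPM at 50 kPa and 12.5, 17.0 and 5.71 CPM at 2 kPa, among the widest ranges within 2 kPa of the 35 genes.

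New chromatin needs histones, chaperones and copied methylation marks. Uhrf1, which brings the maintenance methyltransferase to hemimethylated DNA, lies on chromosome 17 from 56303321 to 56323486 (plus strand). It had 23.4, 23.4 and 22.2 CPM at 50 kPa, against 34.0, 51.8 and 27.2 CPM at 2 kPa. The groups did not overlap, and the log2 fold change was -0.71 ± 0.23 (SE; edgeR adjusted p = 0.120). Chaf1a and Chaf1b, subunits of the chromatin assembly factor CAF-1, had opposite signs. Chaf1a had -0.51 ± 0.29 and Chaf1b 0.18 ± 0.25 (log2 fold change ± SE), and Chaf1b turned to -0.05 without low tension replicate 3. Slbp, which binds the stem-loop of histone mRNAs, had -0.25 ± 0.15.

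E2f1, with Chaf1b, had a positive log2 fold change. It encodes an activating E2F factor and lies on chromosome 2 from 154559407 to 154569892 (minus strand). E2f1 had 51.6, 55.5 and 52.6 CPM at 50 kPa, against 42.4, 45.6 and 35.4 CPM at 2 kPa. Every 50 kPa library lay above every 2 kPa library. The log2 fold change was 0.37 ± 0.11 (SE; edgeR adjusted p = 0.106), and it stayed between 0.28 and 0.45 when any single library was left out. E2f2, also an activator, had 39.4, 48.1 and 40.6 CPM at 50 kPa, against 56.5, 66.6 and 35.7 CPM at 2 kPa, a log2 fold change of -0.31 ± 0.23 (SE). E2f8, an atypical E2F that represses E2F targets, had 26.9, 29.6 and 21.8 CPM at 50 kPa, against 31.1, 36.4 and 29.6 CPM at 2 kPa. Its groups did not overlap, but only just, with 29.56 CPM in high tension replicate 2 and 29.65 CPM in low tension replicate 3 (log2 fold change -0.31 ± 0.15 SE, edgeR adjusted p = 0.218).

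The E-type cyclins drive the kinase that opens S phase. Ccne1, on chromosome 7 from 38097984 to 38107534 (minus strand), had 19.3, 18.8 and 21.0 CPM at 50 kPa, against 23.3, 23.7 and 18.2 CPM at 2 kPa (log2 fold change -0.14 ± 0.13 SE, edgeR adjusted p = 0.501). Ccne2, on chromosome 4 from 11191351 to 11204779 (plus strand), had 11.5, 11.4 and 6.89 CPM at 50 kPa, against 18.7, 16.02 and 6.31 CPM at 2 kPa (log2 fold change -0.46 ± 0.42 SE, edgeR adjusted p = 0.493). In Ccne2 replicate 3 was the lowest of its group on both surfaces.

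**Figure D2:**
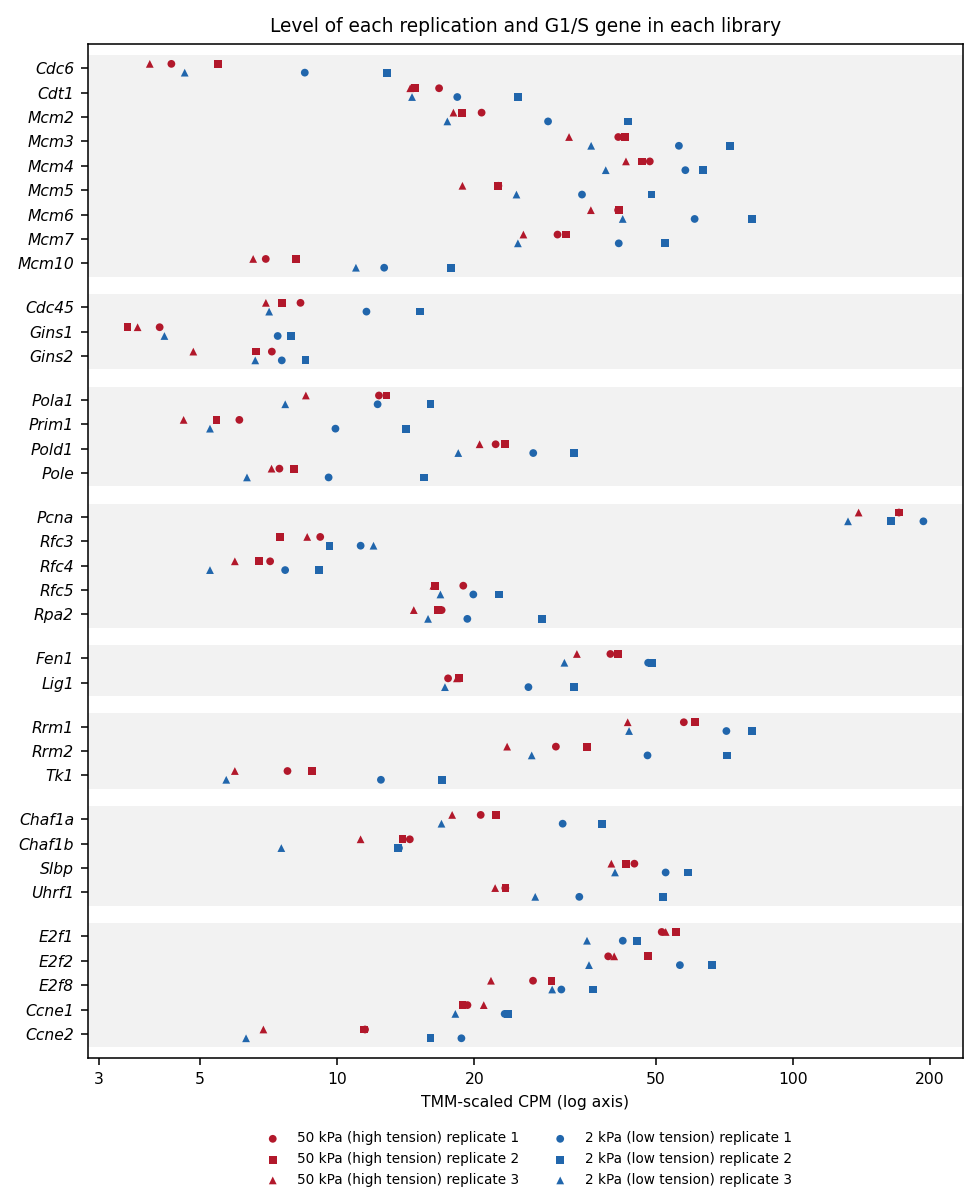
TMM-scaled CPM (log axis) of each of the 35 genes in each library, arranged by role, with 50 kPa libraries in red above the 2 kPa libraries in blue and the marker shape giving the replicate. Low tension replicate 2 (blue square) is the highest library in 30 of the 35 genes (28.4% of all genes tested). Low tension replicate 3 (blue triangle) is at or below the highest 50 kPa library in 28 (61.7% of all genes tested).

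In most of the 35 genes 2 of the 2 kPa libraries stood apart from each other. Low tension replicate 2 was the highest of all 6 libraries in 30 of the 35 genes, against 28.4% of all genes tested. Pcna and Ccne2 were highest in low tension replicate 1, Rfc3 in low tension replicate 3, and Chaf1b and E2f1 in a high tension library. Low tension replicate 3 was the lowest 2 kPa library in 34 of the 35 genes, with Rfc3 as the exception. The share of all genes in which this was so was not counted. The lowest of all 6 was high tension replicate 3 in 16 genes, against 10.5% of all genes tested. It was low tension replicate 3 in 17 genes, against 25.2% of all genes tested. Summed over the 35 genes, the level was 929, 950 and 799 CPM at 50 kPa, against 1167, 1366 and 795 CPM at 2 kPa.

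The ratio of the highest to the lowest library within 2 kPa had a median of 1.87 over the 35 genes, from 1.23 to 2.98. Within 50 kPa it had a median of 1.22, from 1.05 to 1.67. In 31 of the 35 genes the log2 range among the 2 kPa libraries was larger than the log2 fold change between groups, which was so for 71.9% of all genes tested. Mcm10, Rfc3, E2f1 and E2f8 were the exceptions. The 50 kPa group holds the pair of libraries that were much alike.

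**Figure D3:**
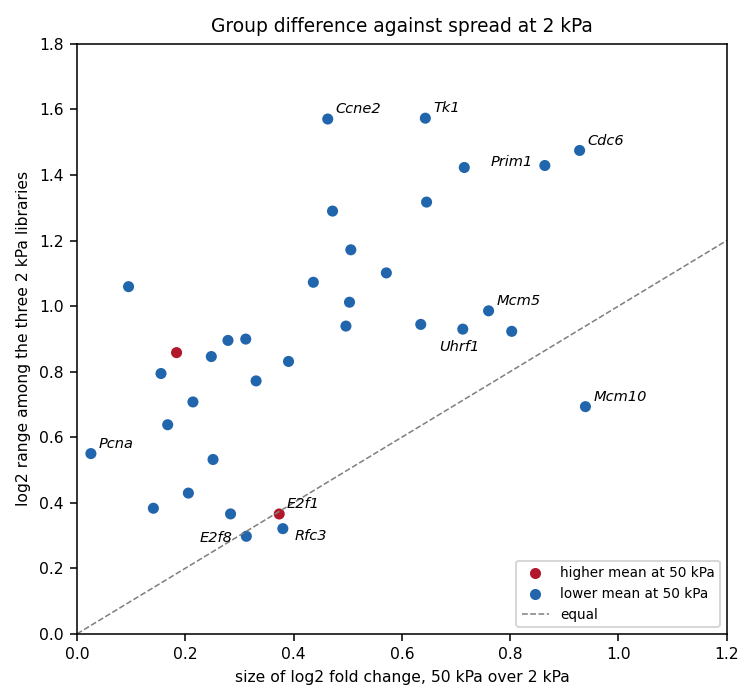
Size of the log2 fold change between 50 kPa and 2 kPa (x axis) against the log2 range of the 3 libraries at 2 kPa (y axis), a point for each of the 35 genes. 31 points lie above the dashed line of equal size, and Mcm10, Rfc3, E2f8 and E2f1 lie on or below it.

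Leaving out low tension replicate 2 gave a median log2 fold change of -0.19 over the 35 genes, with 31 negative, against 51.3% of all genes. Leaving out low tension replicate 3 gave a median of -0.56, with 34 negative, against 51.9% of all genes. Without low tension replicate 3, 27 of the 35 genes were lower at 50 kPa at an unadjusted p under 0.05, against 17.5% of all genes, and edgeR's smallest adjusted p among them was 0.0546. Without low tension replicate 2 there were 4, against 10.9% of all genes. Without low tension replicate 1 there were 3 (15.5% of all genes), and without high tension replicates 1, 2 or 3 there were 3, 4 and 1 (8.31%, 8.31% and 16.1% of all genes). No leave-one-out fit called any of the 35 genes after adjustment. The number of calls over all genes also moved with the library left out. Without high tension replicate 1 or 2, or without low tension replicate 2 or 3, edgeR called 0 of all genes tested lower, against 260 with every library.

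Markers of other cell types also differed between these libraries. The summed level of 10 promyelocyte and progenitor genes ranged from 163 to 184 CPM at 50 kPa and from 242 to 859 CPM at 2 kPa, with the 859 CPM in low tension replicate 2. Their median log2 deviation from the mean of all 6 libraries differed within each group. It was -1.49, -1.53 and -0.22 in high tension replicates 1, 2 and 3, against 0.18, 2.63 and 0.99 at 2 kPa. Low tension replicate 1 had 242 CPM of these genes and low tension replicate 3 had 296 CPM. None of the 10 was called by edgeR. However, 8 were lower at an unadjusted p under 0.05 (14.8% of all genes) and 8 were called lower by DESeq2 (9.51% of all genes). Kit, the stem cell factor receptor and most abundant of them, averaged 105 ± 29.3 CPM at 50 kPa and 76.3 ± 27.3 CPM at 2 kPa (SD, n = 3 each). It was a large part of the 50 kPa sums, at 125, 120 and 71.7 CPM, and the only 1 of the 10 with a positive log2 fold change. Prtn3, a granule protease and second in abundance, averaged 6.56 ± 5.18 CPM at 50 kPa and 79.8 ± 85.5 CPM at 2 kPa (SD, n = 3 each).

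Of the lineage lists, neutrophil genes summed to 866 to 1484 CPM at 50 kPa and 3636 to 6784 CPM at 2 kPa, and 6 of 10 fell. S100a9 and S100a8, calprotectin subunits and the most abundant of them, fell by 2.99 and 2.97 on the log2 scale (edgeR adjusted p = 0.0349 and 0.0381). B lineage genes summed to 8.75 to 24.9 CPM at 50 kPa and 128 to 229 CPM at 2 kPa, and 8 of 9 tested fell, among them Mzb1 and Cd79a, the most abundant. Megakaryocyte genes summed to 81.7 to 246 CPM at 50 kPa and 232 to 392 CPM at 2 kPa, and 5 of 8 fell. Itga2b was among these, and Pf4, the most abundant, averaged 116 ± 76.6 CPM at 50 kPa and 127 ± 53.4 CPM at 2 kPa (SD, n = 3 each). Of all genes tested, edgeR called 1.98% lower. None of the calls in these 3 lists held with high tension replicates 1 and 2 summed, where edgeR called no gene.

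Basophil and mast cell genes, led by Cpa3 and Mcpt8, summed to 42.2 to 151 CPM at 50 kPa and 224 to 747 CPM at 2 kPa, with 0 of 8 called by edgeR, 8 lower at an unadjusted p under 0.05 and 7 called by DESeq2. Only 2 of 12 erythroid genes, Tfrc and Epor, were abundant enough to test. edgeR called neither, both were lower at an unadjusted p under 0.05 and DESeq2 called both. The globin genes and Alas2 stood at 0 or close to it in every library. Macrophage genes, led by Cd68 and Csf1r, summed to 5235 to 6265 CPM at 50 kPa and 2023 to 4020 CPM at 2 kPa, with the 2023 CPM in low tension replicate 2. edgeR called 0 of 10, 6 were higher at an unadjusted p under 0.05 and DESeq2 called 5 higher. Dendritic cell genes summed to 15028 to 23154 CPM at 50 kPa and 5976 to 12159 CPM at 2 kPa, again lowest in low tension replicate 2. Their median log2 deviation was 0.19, 0.34 and 0.09 at 50 kPa, against -0.10, -0.59 and 0.18 at 2 kPa. By this median the groups overlapped. edgeR called 0 of 10, with 3 lower and 4 higher at an unadjusted p under 0.05 and the same numbers called by DESeq2. Of all genes, 14.8% were lower and 13.0% higher at an unadjusted p under 0.05, and DESeq2 called 9.51% lower and 8.52% higher. The part of any of these cell types in the levels of the replication genes was not tested.

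**Figure D4:**
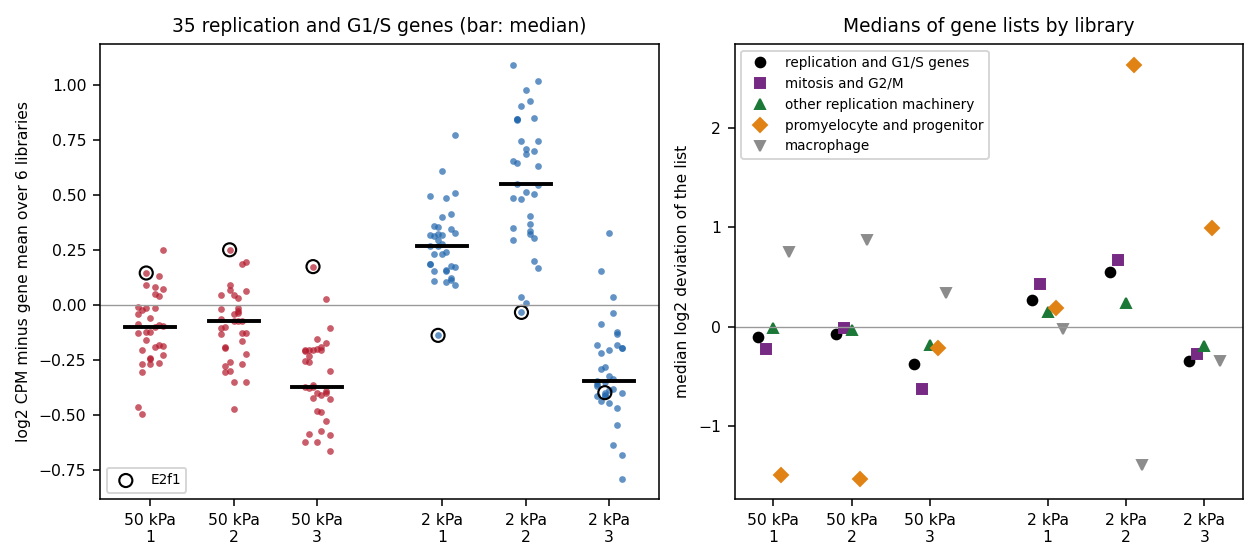
Left, log2 CPM of each of the 35 genes in a library minus its mean over all 6 libraries, with the median as a bar and E2f1 circled; right, the same median for 5 gene lists. The median of the 35 genes runs from -0.37 to -0.07 in the 50 kPa libraries and stands at 0.27, 0.55 and -0.34 in the 2 kPa libraries, and low tension replicate 2 also has the highest promyelocyte median (2.63) and the lowest macrophage median (-1.39).

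Levels can be compared between genes only per length, here as CPM per kb of the annotated exons of a gene in GENCODE vM21, all isoforms together. Pcna was first, at 66.9 ± 7.6 CPM per kb at 50 kPa and 68.1 ± 12.8 CPM per kb at 2 kPa (SD, n = 3 each). Pole was last, at 0.677 CPM per kb at 50 kPa and 0.938 CPM per kb at 2 kPa. E2f1 was second at 50 kPa, with 16.9 CPM per kb, and seventh at 2 kPa, with 13.0 CPM per kb. Fen1, with 15.8 CPM per kb at 50 kPa and 17.7 CPM per kb at 2 kPa, and Rrm2, with 10.7 CPM per kb at 50 kPa and 17.6 CPM per kb at 2 kPa, were the next in the 2 kPa order after Pcna. The ring subunits are used in equal numbers, but their levels per kb differed between Mcm4, the highest, and Mcm2, the lowest. The difference was 4.66-fold at 50 kPa and 3.46-fold at 2 kPa. The length used was 3589 exon bases for Mcm4 and 6956 for Mcm2, so part of this difference comes from length. Before division by length, Mcm4 and Mcm2 averaged 46.1 and 19.2 CPM at 50 kPa, and 53.5 and 29.99 CPM at 2 kPa. Which isoforms were present was not tested.

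In 13 of the 35 genes some exon bases also belong to a gene that runs the other way. The longest overlaps were those of Chaf1a with Ubxn6 (4648 of 8854 exon bases), Gins2 with Gse1 (2758 of 4097) and Fen1 with Tmem258 and Gm10143 (2039 of 2422). The library kit keeps the strand, but the sources used here do not give whether counting used it. The counts of these 13 genes may therefore hold reads of the other gene or lack reads of their own.

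Other genes of the pathway were taken from 3 lists. Of 39 further genes of the replication machinery, such as origin recognition and further polymerase subunits, 31 had negative log2 fold changes (53.2% of all genes). Their median was -0.19 and none was called. At an unadjusted p under 0.05, 6 (15.4%) were lower and 2 higher, against 14.8% and 13.0% of all genes. DESeq2 called 4 (10.3%) lower and 1 higher, against 9.51% and 8.52% of all genes. Rnaseh2b, a subunit of the enzyme that removes ribonucleotides from DNA, had the smallest p, with 12.7, 11.6 and 10.7 CPM at 50 kPa and 18.8, 18.4 and 16.2 CPM at 2 kPa. Its groups did not overlap, and its log2 fold change was -0.61 ± 0.12 (SE; edgeR adjusted p = 0.0503). Pold4, the smallest subunit of polymerase delta, had 52.2, 45.9 and 56.0 CPM at 50 kPa and 38.4, 38.4 and 36.6 CPM at 2 kPa. It was higher in every 50 kPa library (log2 fold change 0.44 ± 0.10 SE, edgeR adjusted p = 0.0633).

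Of 17 further genes of deoxynucleotide supply and chromatin, 14 had negative log2 fold changes, the median was -0.39, and Tyms fell. Tyms, thymidylate synthase, had 11.3, 11.2 and 11.1 CPM at 50 kPa and 18.5, 26.0 and 18.6 CPM at 2 kPa. Its log2 fold change was -0.91 ± 0.16 (SE; edgeR adjusted p = 0.0444), and the call did not hold without any one of the high tension libraries or without low tension replicate 2 or 3 (adjusted p 0.0554 to 0.196). It was also lost with upper-quartile or total counts scaling, a filter of 5 CPM, limma-voom (adjusted p 0.0501 to 0.0631) and the alike pair summed (0.187). Of 28 further G1/S regulators, 18 had negative log2 fold changes, the median was -0.07 and none was called. At an unadjusted p under 0.05, 6 (21.4%) were lower and 2 higher, against 14.8% and 13.0% of all genes. DESeq2 called 5 (17.9%) lower and 2 higher, against 9.51% and 8.52% of all genes. Cdkn2a and Cdkn2d, whose products include inhibitors of the cyclin D kinases, had log2 fold changes of -1.13 ± 0.23 and -0.47 ± 0.10 (SE; edgeR adjusted p = 0.0553 and 0.0580). Cdkn2a was called without low tension replicate 1 (adjusted p = 0.0481). Ccnd1, a D-type cyclin, had 0.42 ± 0.34 (edgeR adjusted p = 0.452). Cdkn1a, the p53 target that inhibits cyclin E kinases, averaged 675 ± 28.1 CPM at 50 kPa and 634 ± 242 CPM at 2 kPa (SD, n = 3 each). Myc averaged 37.0 ± 8.43 CPM at 50 kPa and 38.7 ± 15.5 CPM at 2 kPa (SD, n = 3 each).

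Of the mitosis and G2/M genes, all 20 had negative log2 fold changes with a median of -0.61. 18 were highest in low tension replicate 2, 18 were lowest in high tension replicate 3 and 1 was lowest in low tension replicate 3. A single gene, the proliferation marker Mki67, fell. Mki67 had 112, 130 and 135 CPM at 50 kPa and 180, 227 and 202 CPM at 2 kPa (log2 fold change -0.69 ± 0.13 SE, edgeR adjusted p = 0.0486). That call did not hold when any 1 library was left out other than low tension replicate 1 (adjusted p 0.0647 to 0.224). It was also lost with upper-quartile or total counts scaling, other filters and the robust fit (adjusted p 0.0503 to 0.0653), and with the alike pair summed (0.197).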

How the data were processed

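PolyA RNA-seq libraries of cultures at 50 kPa (3) and 2 kPa (3) were compared, grouped by their titles. Each deposited table lists the authors' raw counts of reads by gene for 1 library. The tools named are HTSeq 0.6.1p2, TopHat2 2.0.11, FastQC 0.11.2 and edgeR (3.8.6 and 3.16.5), with mm10 and hg19 as builds and no role for any, per the submitters' processing notes. Annotation and strand setting: not given in the sources used here. A directional library kit was used, per the labels' protocols.

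The test was edgeR 4.0.16 under R 4.3.3. Low counts were removed with filterByExpr (minimum count 10, minimum total 15), libraries scaled by TMM (factors 0.927 to 1.16), and stiffness tested with glmQLFit and glmQLFTest. Benjamini-Hochberg adjustment ran over all 13155 genes, with a threshold of 0.05, so a gene that rose, fell or was called passed it. The common biological coefficient of variation was 24.6%. A standard error is the log2 fold change divided by the square root of F. The procedure was tested on simulated data. Alternatives used limma 3.58.1, DESeq2 1.42.0, other scalings and filters, a replicate term, the summed high tension pair, and each library left out. Python 3.11.15 and matplotlib 3.10.9 matched promoters and drew figures.

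The 35 genes and all lists were chosen with earlier results of these data known. Values per library are given for the smallest p of each role and for Mcm5, Pcna, E2f1, Ccne1, Ccne2 and Rrm2. Other genes of the 35 whose values per library are printed (Mcm2, Mcm4, Mcm6, Tk1, E2f2 and E2f8) were chosen after their values were seen. In other lists, called genes or the 2 of smallest p are named, with Ccnd1, Cdkn1a, Myc and Mki67, and the 2 most abundant markers of each cell type.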

Additional observations from a re-analysis of the deposited data

How the results depend on the processing

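Over the 35 genes the median log2 fold change stayed between -0.55 and -0.36 under other scalings, filters and tests, and between -0.56 and -0.19 when 1 library was left out. Scaling by total counts moved the median of all genes to -0.16 and that of the 35 genes to -0.55, a difference of -0.39. Of the 35 genes DESeq2 called 4 lower and 1 higher, and no other setting without the replicate term called any. With the replicate block edgeR called 1 of them lower, Mcm10 (adjusted p = 0.0429), and 522 of all 13155 genes. The correlations of same-numbered libraries' deviations were 0.54, -0.11 and 0.49, and 3 of the 6 libraries correlated best with their own number. As high tension replicates 1 and 2 were much alike, these values cannot tell whether equal numbers mark pairs. The block called 8 mitosis, 1 G1/S and 2 other replication genes lower. DESeq2 called 5 mitosis, 4 deoxynucleotide and chromatin, 5 G1/S and 4 other replication genes lower (9.51% of all genes). It called 1 deoxynucleotide, 2 G1/S and 1 other replication gene higher (8.52% of all genes). The mitosis count of 1 became 0 with upper-quartile or total counts scaling, without the low-count filter, with a filter of 5 CPM in 3 libraries, in the robust fit and with the pair summed. The deoxynucleotide and chromatin count of 1 became 0 with upper-quartile or total counts scaling, the 5 CPM filter, limma-voom and the pair summed. RLE scaling called 1 other replication gene and total counts scaling 1 G1/S gene. Leaving out 1 library gave 0 to 1 lower calls in the mitosis, deoxynucleotide and G1/S lists.

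Among the genes named, signs turned for Pola1, Pcna, Rfc4, Chaf1b, Cdkn1a and Myc. When 1 library was left out, log2 fold changes ran from -0.33 to 0.17 for Pola1, -0.16 to 0.12 for Pcna, -0.35 to 0.027 for Rfc4, -0.047 to 0.32 for Chaf1b, -0.14 to 0.43 for Cdkn1a and -0.35 to 0.22 for Myc. Cdkn1a was also -0.0037 with total counts scaling. The cause of these moves was not tested. The 35 genes held at least 116 counts in every library, and counting error weighs most on Gins1, which had the fewest.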

Other observations

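A few genes outside the 35 had larger differences than any of them. They were chosen after their values were seen. Dut, the dUTPase that keeps uracil out of DNA, had 10.5, 9.19 and 7.84 CPM at 50 kPa and 19.2, 36.5 and 13.0 CPM at 2 kPa (log2 fold change -1.32 ± 0.38 SE, edgeR adjusted p = 0.0962). Cdca7, which helps the remodeller HELLS in DNA methylation, had 5.88, 5.97 and 6.22 CPM at 50 kPa and 12.9, 26.7 and 9.43 CPM at 2 kPa (log2 fold change -1.44 ± 0.38 SE, edgeR adjusted p = 0.0851). Mybl2, a Myb factor that acts on late cell cycle genes, had 6.50, 6.54 and 5.99 CPM at 50 kPa and 12.5, 27.6 and 9.25 CPM at 2 kPa (log2 fold change -1.38 ± 0.41 SE, edgeR adjusted p = 0.102). In each of these 3 genes the groups did not overlap and low tension replicate 2 was the highest library. Without it their log2 fold changes were -0.81, -0.89 and -0.78.

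Ccnd2, a D-type cyclin, had another order. It had 84.8, 78.2 and 175 CPM at 50 kPa and 215, 299 and 554 CPM at 2 kPa, with its highest level in low tension replicate 3 (log2 fold change -1.66 ± 0.46 SE, edgeR adjusted p = 0.0908). Rb1, the retinoblastoma protein gene, had 73.7, 75.4 and 73.4 CPM at 50 kPa and 57.9, 63.1 and 56.2 CPM at 2 kPa (log2 fold change 0.33 ± 0.08 SE, edgeR adjusted p = 0.0756). Like E2f1 it was higher in every 50 kPa library.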
